A study of Rattus norvegicus with 10 samples.

Results

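The RGS genes encode regulators of G protein signalling, and 10 of them were examined here in the hippocampus of rats after electrical stimulation of the amygdala: Rgs2, Rgs4, Rgs5, Rgs7, Rgs8, Rgs10, Rgs12, Rgs14, Rgs16 and Rgs17. Members were chosen by name, with earlier results of these data known. A member is the row of the count matrix whose RefSeq identifier belongs to the rat symbol. Each of the 10 had 1 row among 32041 features, of which 22447 had enough counts to be tested. All 10 members were among the tested features. In the sham group, 5 male Sprague-Dawley rats carried electrodes and received no current. In the stimulated group, 5 such rats received repeated trains of 400 µA pulses at 60 Hz for 30 min through an electrode in the left lateral amygdala. This evokes status epilepticus, a prolonged seizure that was ended with diazepam. Animals that did not enter status epilepticus were stimulated for longer, and the labels do not say whether any of these rats were. Sprague-Dawley is an outbred strain, and the groups were matched in age. Tissue was a piece cut from the left hippocampus that contained CA3 and the dentate gyrus, taken 3 months after stimulation. The study states that its stimulated animals had spontaneous seizures by then. The time between the last seizure and tissue collection was not given in the sources used here. Each library came from 1 rat, and a piece of mixed tissue cannot show which cells held a transcript.

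A G protein is switched on when its alpha subunit exchanges GDP for GTP at an activated receptor, and it switches itself off by hydrolysing GTP. RGS proteins bind the active alpha subunit through the RGS domain and speed up this hydrolysis, so that they shorten signals from receptors for glutamate, GABA, acetylcholine, dopamine, opioids and other transmitters. The members fall into 4 subfamilies. Rgs2, Rgs4, Rgs5, Rgs8 and Rgs16 belong to the R4 subfamily of small proteins that consist of little more than the RGS domain, Rgs7 to the R7 subfamily, Rgs10, Rgs12 and Rgs14 to the R12 subfamily, and Rgs17 to the RZ subfamily.

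Libraries held 13552309 to 24086059 aligned counts, with the fewest in sham rat 2, and 32.0 to 45.1% of reads were unaligned. This share was 41.4% in stimulated rat 8, 42.9% in rat 9 and 45.1% in rat 10, and at most 37.1% in the other rats. Ribosomal RNA rows held 12.2, 8.73, 7.42, 6.18 and 1.82% of aligned counts in sham rats 1 to 5. In stimulated rats 6 to 10 they held 4.21, 4.79, 5.64, 5.28 and 3.03%, less than in sham rats 1 to 4. Markers of the dissected fields were counted in all rats, with Grik4 of CA3 at 152 ± 8.57 CPM and Prox1 of dentate granule cells at 28.2 ± 4.97 CPM in sham (SD, n = 5). CPM is the count of a feature per 1000000 aligned counts, with TMM-scaled library sizes. The CA1 marker Fibcd1 was also present, at 111 ± 30.2 CPM in sham. No batch is named in the labels, and values within batches could not be given. Levels in CPM are compared here between rats for the same gene and not between genes, because the counts were not divided by transcript length.

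The regions upstream of Rgs2 and Rgs4 are shown first, because these 2 members stood farthest from sham in the stimulated rats (log2 fold changes of 1.16 and 1.52). Sequences are from RefSeq on the GRCr8 build, which is not the build of the counts, and hold the 250 bases before the annotated gene start in the direction of transcription. Capitals mark the letters TGACG of a half-site of the cyclic AMP response element (CRE) on either strand and the letters TATAAA. The Rgs2 stretch lies at chr13:58352667-58352916 and the Rgs4 stretch at chr13:84475885-84476134, both on the minus strand.
Rgs2: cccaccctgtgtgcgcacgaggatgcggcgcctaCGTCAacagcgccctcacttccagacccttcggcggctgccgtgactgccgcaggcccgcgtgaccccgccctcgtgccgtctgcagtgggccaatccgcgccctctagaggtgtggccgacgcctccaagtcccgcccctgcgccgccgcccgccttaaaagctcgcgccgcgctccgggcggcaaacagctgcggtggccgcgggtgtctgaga
Rgs4: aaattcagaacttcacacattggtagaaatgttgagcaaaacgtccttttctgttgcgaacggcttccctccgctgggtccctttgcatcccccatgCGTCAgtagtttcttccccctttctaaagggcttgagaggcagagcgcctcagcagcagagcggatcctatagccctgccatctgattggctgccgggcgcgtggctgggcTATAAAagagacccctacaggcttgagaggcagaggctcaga

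In windows of 300 bases, the 250 above with the next 50 bases, the half-site letters occurred in 2 of 10 members, Rgs2 and Rgs4, and in 21.2% of 33469 RefSeq promoters. They lay 216 to 212 bases before the start in Rgs2 (positions -216 to -212) and at positions -153 to -149 in Rgs4. The full palindrome TGACGTCA was in 0 of 10 members and in 1.83% of all promoters, and a CArG box was likewise in 0 of 10 and in 1.64%. The letters TGANTCA of an AP-1 site were found in Rgs12 and Rgs17 and in 7.33% of all promoters. The letters TATAAA were found in Rgs4 alone of the members, at positions -42 to -37, and in 14.2% of all promoters. The letters CCAAT occurred in 4 of 10 members (Rgs2, Rgs4, Rgs8 and Rgs16) and in 37.5% of all promoters, and GCGTGGGCG of an EGR site in 0 of 10 and in 0.544%. Each motif was searched on both strands. Such matches are letters in a window and do not show that a factor binds there. Chromosome 13 held 6 of the 10 members. Rgs8 and Rgs16 had 0 protein-coding genes between them, as did Rgs5 and Rgs4, while 35 lay between Rgs2 and Rgs8.

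It was asked which RGS genes differed between stimulated and sham rats. After adjustment over all features, 0 of 10 members passed 0.05 in the quasi-likelihood test of edgeR, and so did 0% of features. An unadjusted 0.001, the cut-off the study applied, was passed in this test by 0 of 10 members and by 0.174% of features. In edgeR's likelihood ratio and exact tests 2 members, Rgs2 and Rgs4, passed it, and 1 did in DESeq2. These 3 tests also passed more features in all, namely 218, 211 and 178 of 22447, beside 39 in the quasi-likelihood test. At an unadjusted 0.05, 3 of 10 members were higher in stimulated rats, namely Rgs2, Rgs4 and Rgs17, beside 6.7% of all features. In the lower direction 0 of 10 members passed this level, beside 3.16% of features. The values of the 2 groups overlapped for each of the 10 members, and 1.29% of all features had groups that did not overlap. In this tissue a lower or higher count can reflect fewer or more cells of a type as well as less or more RNA per cell, which cannot be told apart.

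Other tests placed Rgs2 on the other side of the adjusted threshold. Its adjusted p-value was 0.0375 in edgeR's likelihood ratio test, 0.0411 in edgeR's exact test and 0.0446 in DESeq2, tests that called 119, 90 and 32 features in all. Rgs4 had adjusted values of 0.0612, 0.0673 and 0.186 in the same tests. The other 8 members had no adjusted value under 0.05 in any of the 23 alternative settings.

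**Figure D1:**
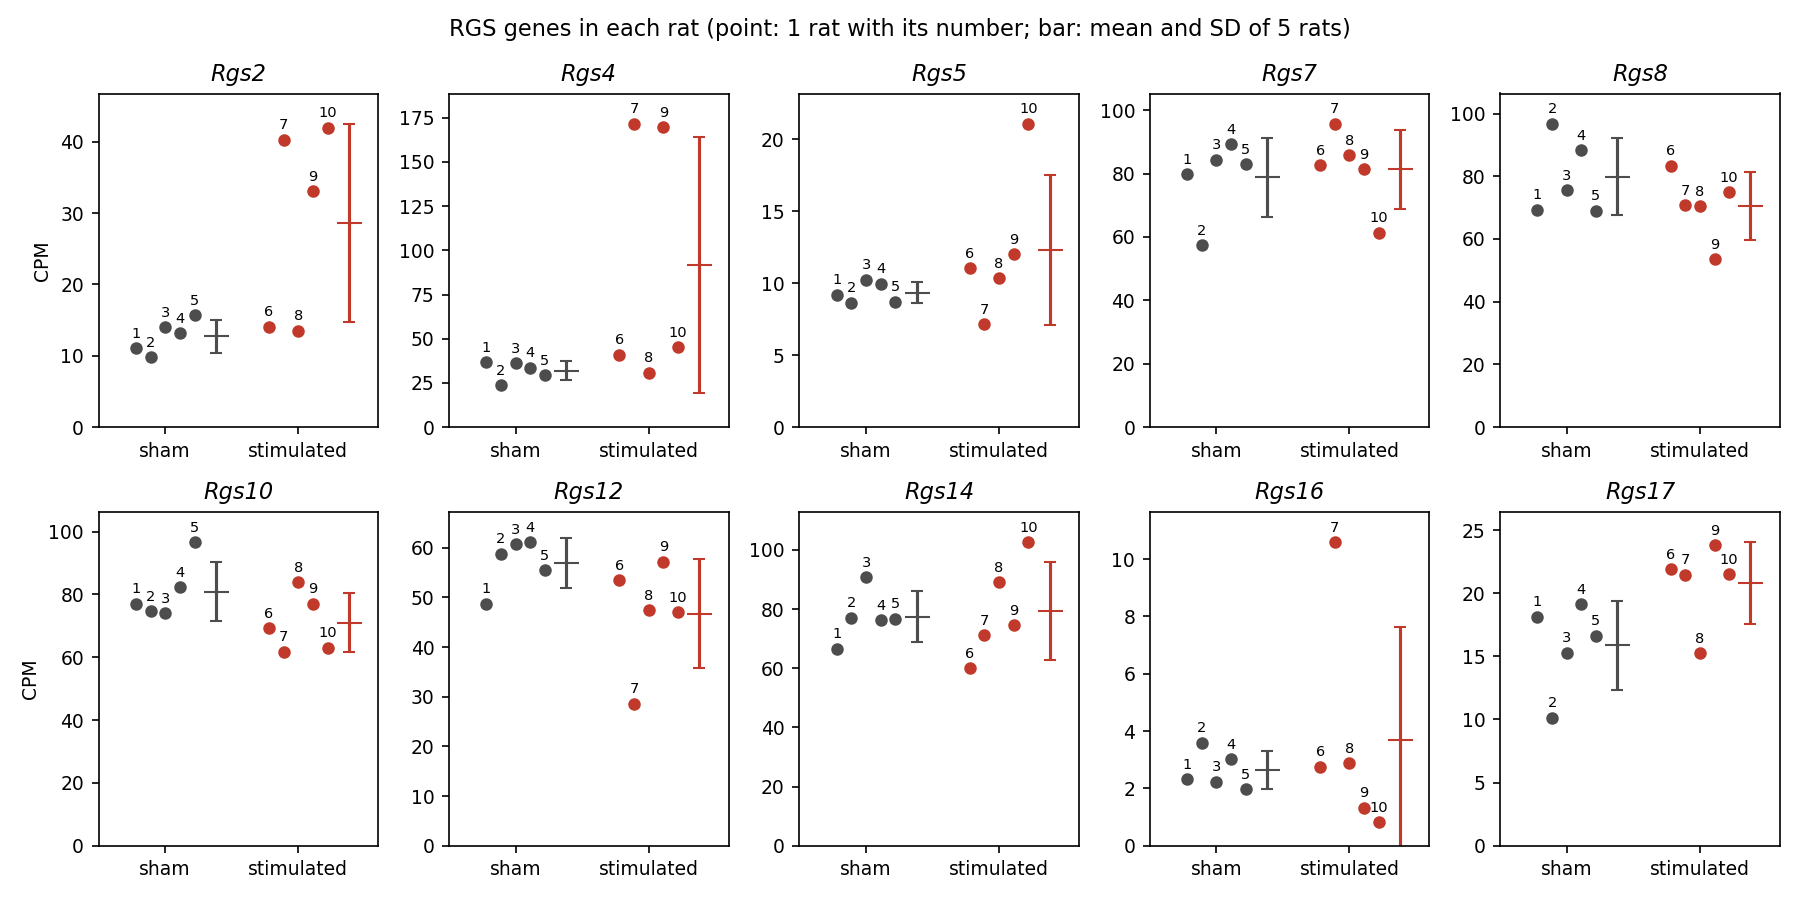
Scaled counts of the 10 RGS genes (vertical axes, CPM from 0) in 5 sham and 5 stimulated rats (horizontal axis). Each point is 1 rat with its number, and the bar beside it gives the mean and SD of the group, which for Rgs16 in stimulated rats (3.67 ± 3.97) runs below the axis. Rgs2 was high in rats 7, 9 and 10, Rgs4 in rats 7 and 9, Rgs16 in rat 7 and Rgs5 in rat 10.

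Among the R4 members, Rgs2 encodes a regulator with a preference for alpha subunits of the Gq class and is known as a gene that is transcribed quickly after synaptic activity. Rgs2 (NM_053453) was counted at 11.1, 9.77, 14.0, 13.1 and 15.7 CPM in sham rats 1 to 5. The stimulated rats 6 to 10 had 14.1, 40.3, 13.5, 33.1 and 42.0 CPM. Rats 7, 9 and 10 thus lay above all sham rats, and rats 6 and 8 lay within the sham range. Sham rats averaged 12.7 ± 2.35 CPM, and the stimulated group 28.6 ± 13.9 CPM (SD, n = 5 each). The change on the log2 scale was 1.16 with an SE of 0.299 (adjusted p = 0.376, unadjusted 0.00168). The difference kept its direction without any 1 rat, between 0.99 without rat 10 and 1.32 without rat 8, and in 10 of these 10 fits the unadjusted p-value was under 0.05. An exact permutation test over the rats, two-sided, gave p = 0.0476 for its log2 CPM, where 0.00794 is the smallest value possible.

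Rgs4 acts on alpha subunits of the Gi, Go and Gq classes and is abundant in forebrain neurons. Rgs4 (NM_017214) was counted at 36.6, 23.6, 36.3, 33.7 and 29.5 CPM in sham rats 1 to 5 and at 41.1, 171.5, 30.7, 169.5 and 45.4 CPM in stimulated rats 6 to 10. Rats 7 and 9 stood apart with 5.37 times the sham mean in rat 7, rats 6 and 10 were above all sham rats by less than 10 CPM, and rat 8 lay within the sham range. The group means were 31.9 ± 5.47 and 91.6 ± 72.2 CPM (SD, n = 5 each), which on the log2 scale was a change of 1.52 with an SE of 0.432 (adjusted p = 0.38, unadjusted 0.00353). Its log2 fold change was 1.15 without rat 7 and 1.18 without rat 9, and between 1.42 and 1.72 without any other rat. The exact permutation test of log2 CPM, two-sided, gave p = 0.0397. Rgs2 and Rgs4 differed in rat 10, which had the highest Rgs2 of all rats and an Rgs4 close to that of rat 6.

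Rgs16 is an R4 member whose transcript is known to respond to many stimuli. Rgs16 (NM_001077589) was the least counted member, with 16 to 228 reads per library. Sham rats 1 to 5 had 2.33, 3.59, 2.23, 3.02 and 1.97 CPM, and stimulated rats 6 to 10 had 2.76, 10.6, 2.87, 1.33 and 0.826 CPM. Rat 7 was above all sham rats and rats 9 and 10 were below all of them, although these 3 were the rats with high Rgs2. The change of 0.50 on the log2 scale, with an SE of 0.527 (adjusted p = 0.783), turned to -0.44 without rat 7 and was 0.01 in limma-voom.

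Rgs5 is known in the brain for its expression in pericytes, the contractile cells around capillaries. Rgs5 (NM_019341) was counted at 9.19, 8.63, 10.2, 9.96 and 8.72 CPM in sham rats, with the smallest SD of log2 CPM of the members, and at 11.0, 7.15, 10.3, 12.0 and 21.1 CPM in stimulated rats. Rat 10 had 2.25 times the sham mean, rats 6, 8 and 9 were above the highest sham rat by less, and rat 7 was below the lowest. The log2 fold change was 0.40 (SE 0.227, adjusted p = 0.575) and was 0.11 without rat 10. Without rat 7 it was 0.53, with an unadjusted value of 0.0168.

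Rgs8 acts mainly on the Gi and Go classes. Rgs8 (NM_019344) was counted at 69.3, 96.7, 75.6, 88.3 and 69.0 CPM in sham and at 83.3, 70.8, 70.4, 53.6 and 74.8 CPM in stimulated rats. Only rat 9 lay outside the sham range, below it. Its log2 fold change was -0.18 (SE 0.128, adjusted p = 0.671). The R4 subfamily thus held members that were high in different stimulated rats, and 1 member, Rgs8, that was high in none of them.

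**Figure D2:**
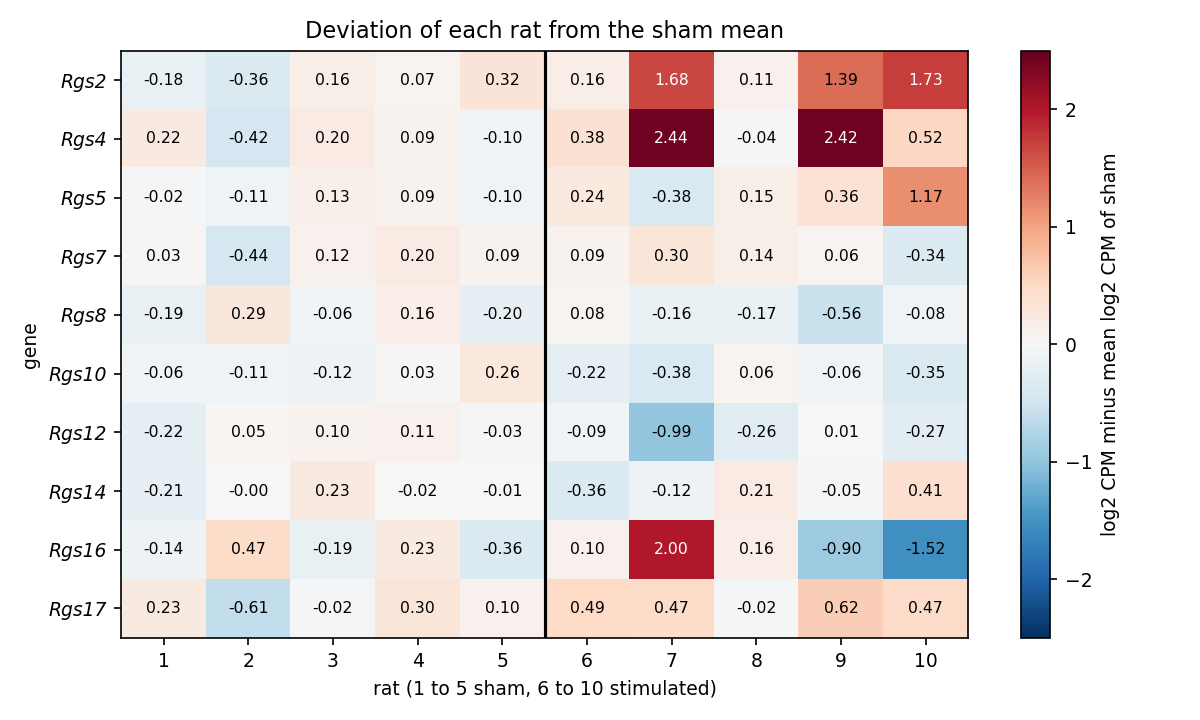
Log2 CPM of each RGS gene (rows) in each rat (columns, sham 1 to 5 left of the line, stimulated 6 to 10 right of it) minus the mean log2 CPM of the 5 sham rats, given as a number and a colour. Stimulated rat 8 stayed within 0.26 of the sham mean for all 10 genes, while rat 7 ranged from -0.99 for Rgs12 to 2.44 for Rgs4.

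The single R7 member, Rgs7, works as a complex with the beta subunit Gnb5 and is tied to the membrane by Rgs7bp or by the receptor Gpr158. Rgs7 (NM_019343) was counted at 79.8, 57.4, 84.4, 89.3 and 83.0 CPM in sham rats and at 82.7, 95.7, 85.8, 81.3 and 61.4 CPM in stimulated rats. The lowest values were those of sham rat 2 and stimulated rat 10. The log2 fold change was 0.05 (SE 0.133, adjusted p = 0.935), and its sign turned without sham rat 2 (-0.06) and without stimulated rat 7 (-0.03). Its partners were measured at close levels in both groups. In sham and in stimulated rats, Gnb5 had 57.2 ± 8.65 and 59.3 ± 7.45 CPM (SD, n = 5 each), and Rgs7bp had 31.0 ± 4.68 and 31.2 ± 4.93 CPM. Gpr158 had 159.9 ± 14.6 and 175.7 ± 27.5 CPM (log2 fold change 0.14, SE 0.11, adjusted p = 0.705).

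The 3 R12 members are large or many-domained regulators of the Gi class, apart from the small Rgs10. Rgs12 (NM_019339), a scaffold with further signalling domains, was counted at 48.7, 58.8, 60.7, 61.1 and 55.4 CPM in sham rats and at 53.5, 28.6, 47.4, 57.2 and 47.1 CPM in stimulated rats. Rat 7 had by far the lowest value, and rats 8 and 10 were just below the lowest sham rat. On the log2 scale the change was -0.29, with an SE of 0.154 (adjusted p = 0.555), and -0.16 without rat 7. Rgs10 (NM_019337), a small regulator known in microglia and neurons, was counted at 77.0, 74.6, 73.9, 82.3 and 96.6 CPM in sham and at 69.2, 61.7, 83.8, 77.0 and 63.0 CPM in stimulated rats. Rats 6, 7 and 10 were below all sham rats, and the log2 fold change was -0.19 (SE 0.109, adjusted p = 0.576). The 7 microglial markers summed to 248, 334, 248, 347 and 279 CPM in stimulated rats 6 to 10, beside 231 to 286 CPM in sham rats. Single markers differed in rat 7. There Csf1r (183 CPM), Aif1 (37.0 CPM) and Itgam (57.4 CPM) were above all sham rats, while Tmem119 (14.0 CPM) and P2ry12 (8.64 CPM) were below all of them. The part of microglia in the level of Rgs10 was not tested.

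Rgs14 is enriched in pyramidal cells of CA2, the small field beside CA3, and limits synaptic plasticity there. Rgs14 (NM_053764) was counted at 66.6, 77.1, 90.7, 76.2 and 76.8 CPM in sham and at 60.0, 71.1, 89.0, 74.6 and 102.6 CPM in stimulated rats. Rat 10 was above and rat 6 below all sham rats, and the log2 fold change was 0.04 (SE 0.134, adjusted p = 0.953). The 3 CA2 markers with a row, Pcp4, Amigo2 and Necab2, summed to 242 to 291 CPM in sham rats and to 177 CPM in rat 10, the lowest of all rats, where Rgs14 was highest. Necab2 was lower at an unadjusted 0.05, and averaged 154 ± 14.6 CPM in sham against 109.5 ± 36.1 CPM after stimulation (SD, n = 5 each, adjusted p = 0.421). The other CA2 markers did not pass this level, with Amigo2 at -0.23 and Pcp4, which was highest in rat 7 at 128.8 CPM, at 0.14 on the log2 scale. The part of CA2 cells in the level of Rgs14 was not tested.

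The RZ member Rgs17 acts on the Gz class and on Gi and Go. Rgs17 (NM_001107459) was counted at 18.1, 10.2, 15.3, 19.1 and 16.6 CPM in sham rats 1 to 5 and at 21.9, 21.5, 15.3, 23.8 and 21.5 CPM in stimulated rats 6 to 10. In contrast to Rgs2 and Rgs4, rats 6, 7, 9 and 10 lay close together above all sham rats, and rat 8 lay within the sham range. Sham rats averaged 15.9 ± 3.52 CPM, and the stimulated group 20.8 ± 3.24 CPM (SD, n = 5 each). The change was 0.39 on the log2 scale with an SE of 0.167 (adjusted p = 0.471, unadjusted 0.0369). The unadjusted p-value was under 0.05 in 3 of the 10 fits without 1 rat (without sham rat 1, sham rat 4 or stimulated rat 8) and not without any of the other 7 rats, and the log2 fold change was 0.26 without sham rat 2, which had the lowest value. The exact permutation test of log2 CPM, two-sided, gave p = 0.0635.

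**Figure D3:**
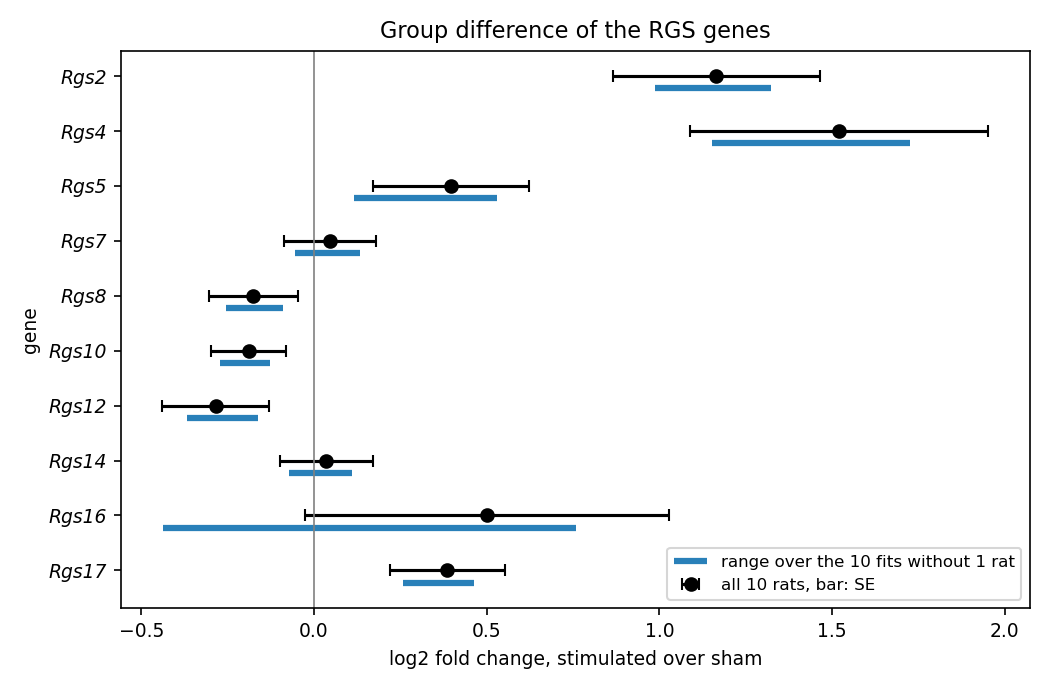
Log2 fold change of the 10 RGS genes, stimulated over sham (horizontal axis), from edgeR's quasi-likelihood fit of all 10 rats (points, with the SE) and its range over the 10 fits that each left out 1 rat (blue lines). Rgs2 (1.16) and Rgs4 (1.52) stayed above 0.9 in all of these fits, and Rgs16, Rgs7 and Rgs14 lay on both sides of 0.

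Over the 10 members, 7 were higher and 3 lower in stimulated rats, and of all 22447 features 11716 were higher. The 7 included Rgs7 and Rgs14, with log2 fold changes of 0.05 and 0.04. The median log2 fold change was 0.22 for the members beside 0.01 over all features. This contrast is a description, because the members were chosen with earlier results of these data known. The spread between stimulated rats relative to that between sham rats differed from member to member. The SD of log2 CPM in stimulated rats was 3.01 times that in sham rats for Rgs2, 4.5 times for Rgs4, 5.05 times for Rgs5 and 3.96 times for Rgs16. For Rgs12 the ratio was 2.91 and for Rgs14 it was 1.89. Rgs7, Rgs8, Rgs10 and Rgs17 had ratios of 0.939, 1.08, 1.18 and 0.684. The ratio was above 1 for 80% of members, near the 69.5% of all features and the 72.7% of features with at least the mean count of the least counted member, with a median of 2.4 for the members and 1.37 for all features, where the middle 9 in 10 features ran from 0.488 to 4.27.

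Immediate early genes, which neurons transcribe within minutes of activity, were read beside the members in the same rats. Fos was counted at 3.26 to 5.32 CPM in sham rats and at 5.61, 106, 5.24, 50.3 and 61.7 CPM in stimulated rats 6 to 10. The rats with high Fos were the 3 rats with high Rgs2. The 10 immediate early genes of a list summed to 147 to 189 CPM in sham rats and to 197, 751, 138, 1745 and 710 CPM in rats 6 to 10. Of these genes 10 of 10 were higher at an unadjusted 0.05, beside 6.7% of all features, and 0 of 10 passed after adjustment. This list, like all marker lists here, was drawn up with earlier results of these data known, so such counts are a description. Arc alone made up 1118 CPM of the sum in rat 9. Npas4 was highest in rat 10 (11.9 CPM), and in rat 7 (0.371 CPM) it was below its sham mean of 0.558 CPM. The part of neuronal activity in the levels of Rgs2 and Rgs4 was not tested. The share of unaligned reads was 35.6, 32.0, 41.4, 42.9 and 45.1% in rats 6 to 10, and its part in these levels was not tested.

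Markers of glia were read in the same rats. The 6 astrocyte markers summed to 2512 to 3092 CPM in sham rats and to 2604, 7861, 2677, 3597 and 6796 CPM in stimulated rats 6 to 10. Of these markers 4 of 6 (Gfap, Aqp4, Slc1a2 and Slc1a3) were higher at an unadjusted 0.05, beside 6.7% of all features. Most of the sum was Gfap, the filament protein of reactive astrocytes, with 6469 CPM in rat 7 and 5396 CPM in rat 10. Aldh1l1 was instead at 16.4 CPM in rat 7 and 29.3 CPM in rat 10, below its sham range of 40.5 to 50.9 CPM, and Gja1 was lowest in rat 7, at 271 CPM. The 7 microglial markers and the 5 oligodendrocyte markers held 0 that passed this level. The 4 neuronal markers summed to 1845 to 2116 CPM without stimulation and to 1741 to 2115 CPM after it. The remaining lists were sums of 5 oligodendrocyte markers (2351 to 3392 CPM in the sham group and 1890 to 3167 CPM in the stimulated group), 5 interneuron markers (262 to 307 and 243 to 323 CPM) and 4 choroid plexus markers (3.18 to 17.1 and 7.28 to 27.5 CPM). Of the hippocampal fields, 3 dentate granule cell markers summed to 243 to 298 CPM in sham rats and to 158.7 CPM in rat 7 and 355 CPM in rat 9. In rat 7, C1ql2 was at 44.8 CPM beside 140 to 165 CPM in sham, while Prox1 (27.0 CPM) and Calb1 (86.9 CPM) lay within their sham ranges. In sham and in stimulated rats, 3 CA3 markers summed to 215 to 246 and 213 to 274 CPM, and 4 CA1 markers to 176 to 296 and 99.6 to 353 CPM. In these lists 0 markers passed an unadjusted 0.05, no marker of any list was at 0 in every rat, and the part of these cell types in the levels of the members was not tested.

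For Rgs5 the vascular markers were read in the same way. The 9 pericyte markers summed to 116 to 137 CPM in sham rats and to 133, 99.8, 134, 133 and 169 CPM in stimulated rats 6 to 10, and rat 10 had the highest and rat 7 the lowest sum, as for Rgs5. Single markers differed from this order, since Abcc9 (16.1 CPM) and Cox4i2 (5.39 CPM) were above all sham rats in rat 7, and Vtn in rat 10 (17.5 CPM) was below its sham mean of 19.0 CPM. Of these markers 2 of 9, Abcc9 and Kcnj8, were higher at an unadjusted 0.05. Pdgfrb, the growth factor receptor of pericytes and among the 3 genes picked for the highest correlation with Rgs5, was counted at 20.9 to 31.0 CPM in sham and at 26.4, 20.8, 25.4, 26.7 and 42.9 CPM in rats 6 to 10. The 7 endothelial markers summed to 139 to 161 CPM in sham and to 315 CPM in rat 10, with 164 to 177 CPM in the other stimulated rats. Of these 5 of 7 (Pecam1, Flt1, Cdh5, Kdr and Esam) were higher at an unadjusted 0.05, beside 6.7% of all features. Of the 4 smooth muscle markers, 3 were tested and 2 of them, Acta2 and Tagln, were higher at that level. All 4 summed to 27.5, 43.6, 72.5, 47.7 and 62.4 CPM in rats 6 to 10, beside 26.5 to 38.5 CPM in sham. The part of blood vessel cells in the level of Rgs5 was not tested.

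**Figure D4:**
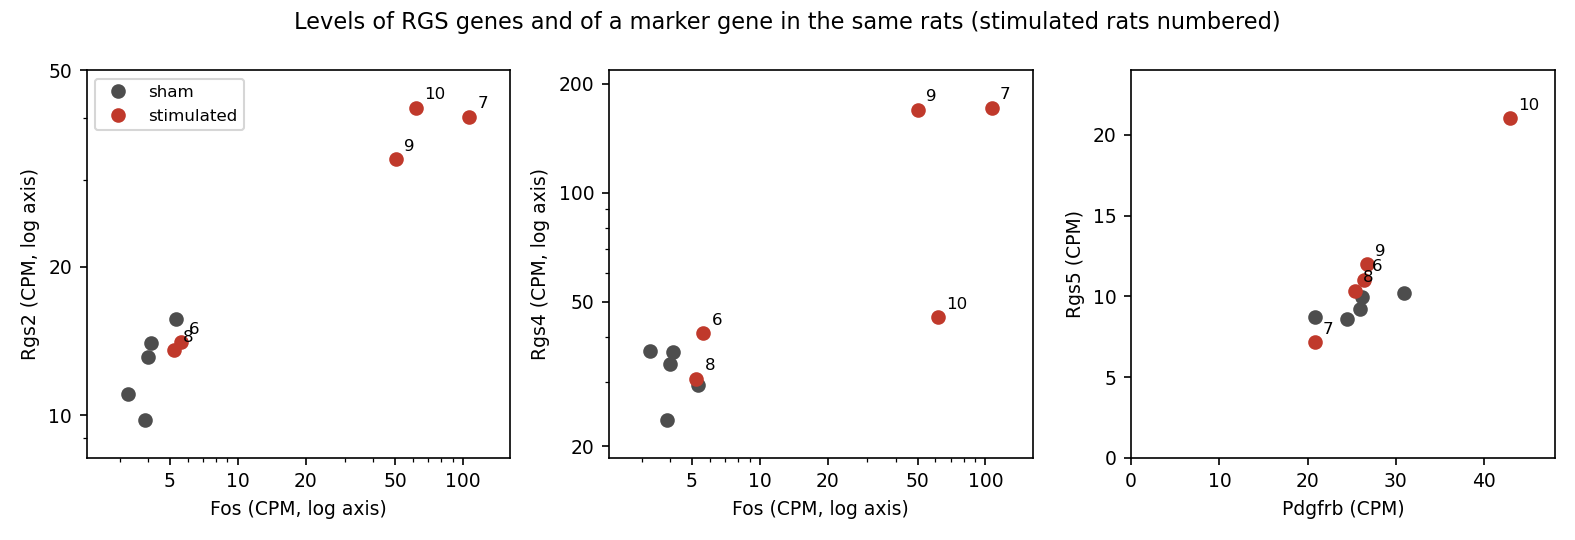
Levels of Rgs2 and Rgs4 against Fos (left and middle, CPM on log axes) and of Rgs5 against Pdgfrb (right, CPM from 0), where each point is 1 rat, grey for sham and red for stimulated with the number of the rat. Rats 7, 9 and 10 were high in Fos (106, 50.3 and 61.7 CPM) and in Rgs2, rat 10 had little Rgs4 (45.4 CPM) for its Fos, and rat 10 was high in both Rgs5 (21.1 CPM) and Pdgfrb (42.9 CPM).

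The genes whose log2 CPM followed each member most closely over the 10 rats were named from 9204 features with a symbol and a mean of at least 5 CPM, as a description with no test. The points share libraries, and for Rgs2 and Rgs4 the Pearson r rests on the few high rats. For 3 other members too, few rats stood far from the sham mean on the log2 scale. These were rat 10 for Rgs5 (1.17), rat 7 for Rgs12 (-0.99), and rats 7, 9 and 10 for Rgs16 (2.00, -0.90 and -1.52). Nearest to Rgs2 were Tmod1 (r = 0.988), Fos (0.978) and Clu (0.972), and nearest to Rgs4 were Naa50 (0.98), Homer1 (0.977) and Fbxw7 (0.976). Homer1 encodes a scaffold of metabotropic glutamate receptors at the synapse, and Clu encodes clusterin, a secreted chaperone of astrocytes. Nearest to Rgs5 were Plekhd1 (0.93), Hps4 (0.926) and Pdgfrb (0.918). Rgs12 was followed most closely by Hipk4 (0.968), Atn1 (0.968) and Mgll (0.958), the last of which encodes the enzyme that breaks down an endocannabinoid, and Rgs16 by Grip1 (0.965), Elp2 (0.948) and Nolc1 (0.926). The nearest genes of the remaining members were Capn7, Hnrnpa1 and Gnl3 for Rgs7 (0.935 to 0.944), Fbxo21, Taf6 and Gfod2 for Rgs8 (0.9 to 0.924), and Mccc2, Pcca and Aig1 for Rgs10 (0.897 to 0.914). They were Myrip, Sall2 and Slc35b4 for Rgs14 (0.864 to 0.92) and Gmcl1, Scyl2 and Myo1f for Rgs17 (0.92 to 0.945). Between members the highest r over the 10 rats was 0.79, for Rgs2 and Rgs4, and the lowest was -0.82, for Rgs5 and Rgs16.

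The rest of the signalling pathway was read from 7 lists of 75 genes, of which 69 had a row and 67 were tested. At an unadjusted 0.05, 2 of the 67 were higher and 1 was lower after stimulation, beside 6.7% and 3.16% of all features. After adjustment 0 of 67 passed (lowest 0.399). The median log2 fold change of the 67 was 0.02. Of 9 further genes with an RGS domain that were tested, 6 were higher and 3 lower, and 0 passed an unadjusted 0.05 in either direction. Nearest to that level were Rgs9, Rgs6 and Rgs1. Rgs9, the R7 member of striatal dopamine signalling, was counted at 6.79 to 9.13 CPM in sham rats and at 7.6, 8.68, 8.88, 19.7 and 12.1 CPM in stimulated rats 6 to 10, so that rats 9 and 10 were above the rest (log2 fold change 0.43, SE 0.232, adjusted p = 0.553). Rgs6 had a log2 fold change of -0.17 (SE 0.106), and Rgs1, with at most 15 counts per library, one of 1.03 (SE 0.701). Rgs18 had at most 4 counts in a library and was not tested.

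Of the 13 alpha subunits, 6 were higher and 7 lower, and 1 passed an unadjusted 0.05, the inhibitory subunit Gnai1, on which many RGS proteins act. It was counted at 111.3, 98.2, 114.7, 110.8 and 104.7 CPM in sham rats and at 112.2, 89.5, 83.0, 86.9 and 72.9 CPM in stimulated rats, where rats 7 to 10 were below all sham rats (log2 fold change -0.28, SE 0.107, adjusted p = 0.427). The next in order were Gnai3, at 0.25 on this scale (SE 0.129), and Gnas, at -0.11 (SE 0.0734). Among 13 beta and gamma subunits tested, 2 gamma subunits were higher at an unadjusted 0.05. From sham to stimulated rats, Gng11 averaged 2.62 ± 0.308 and 4.41 ± 1.59 CPM and Gng12 averaged 8.7 ± 0.825 and 11.2 ± 2.23 CPM (SD, n = 5 each), with adjusted p-values of 0.399 and 0.464. Gng7, a gamma subunit of striatal and hippocampal neurons, was counted at 30.6 CPM in rat 7 and 63.1 CPM in rat 10 beside 145 to 164 CPM in sham rats (log2 fold change -0.49, SE 0.328, adjusted p = 0.638).

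No gene passed an unadjusted 0.05 among the 3 R7 partners tested, the 6 other proteins that bind alpha subunits, the 7 receptor kinases and arrestins, and the 16 effectors tested. The smallest values in these lists belonged to Ric8b, Gpsm3 and Ric8a (log2 fold changes 0.23, -0.28 and -0.10), to Grk2, Grk5 and Grk3 (-0.13, 0.30 and -0.22), and to the channel gene Kcnj6, the cyclase gene Adcy4 and the phospholipase gene Plcb2 (0.15, 0.48 and 0.62). Median log2 fold changes of the 7 lists lay between -0.03 and 0.07, beside 0.22 for the members. Members and lists were both chosen with earlier results of these data known, so this too is a description.

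**Figure D5:**
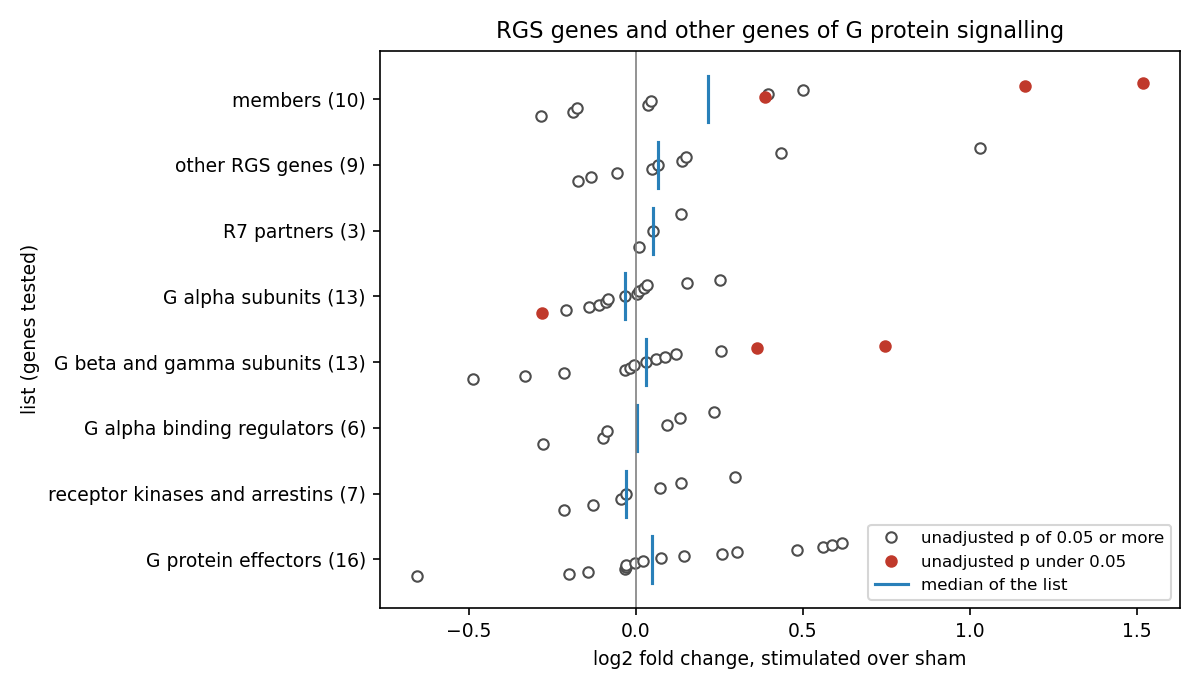
Log2 fold change, stimulated over sham (horizontal axis), of each tested gene in the list of the 10 RGS members and in 7 lists of G protein signalling genes (vertical axis, with the number tested). Filled points had an unadjusted p-value under 0.05, 3 of them among the members (all higher) and 3 among the 67 other genes. At that level 6.7% of all features were higher and 3.16% lower. Blue lines mark the medians.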

How the data were processed

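The authors sequenced polyadenylated RNA of 10 rats in single reads on a Genome Analyzer IIx, aligned them to the RN4 build with BWA and counted them per transcript with their own script. The deposited values are raw counts per RefSeq record. The study's methods name an Ensembl annotation, and the treatment of shared reads and strand was not given in the sources used here, so overlapping genes are uncertain. For this assay the methods list fewer stimulated rats than are labelled, without naming which is missing, and all 10 labelled rats were kept. By their labels rats 1 to 5 are sham and rats 6 to 10 stimulated.

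The row that counts unaligned reads was not part of library sizes. Symbols came from the RefSeq gene table of GRCr8 by identifier. Features with a summed count below the 30th percentile (46 counts) were left out, as in the study. Groups were compared with edgeR 4.0.16 (quasi-likelihood test, TMM factors, default settings, no covariate) in R 4.3.3, adjusted by Benjamini-Hochberg over 22447 features. Log2 CPM used a prior count of 2. Alternatives used limma 3.58.1, DESeq2 1.42.0 and exact permutation over 252 assignments of rats. Members and lists were chosen with earlier results of these data known. All members were named, of each pathway list at most 3 genes with the smallest p-value and the partners of Rgs7, and for each member the 3 genes of highest Pearson r. Fos was named as the immediate early marker, and the other marker genes were named after their values were seen.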

Additional observations from a re-analysis of the deposited data

Results flagged for a closer look

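In each group of 5 rats the gap between the highest or lowest rat and its neighbour was divided by the range of the group and set against Dixon's critical value of 0.71, for the 10 members in both groups, 20 comparisons in all. The ratio passed this value 2 times, where chance alone gives about 1. Rgs16 in stimulated rat 7, at 10.6 CPM beside 0.826 to 2.87 CPM in the other stimulated rats, had a gap of 0.79 of the range. Rgs17 in stimulated rat 8, at 15.3 CPM beside 21.5 to 23.8 CPM, had a gap of 0.723.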

How the results depend on the processing

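The number of members with an adjusted p-value under 0.05 was 0 in the quasi-likelihood test and became 1 (Rgs2) in the likelihood ratio test, edgeR's exact test and DESeq2. It was 0 in the other settings, which were 3 other scalings, 2 other filters, limma-voom, robust and adjusted-deviance versions of the fit, removal of ribosomal RNA rows, summing of rows by symbol and removal of each rat. The number at an unadjusted p-value under 0.001 became 1 without the filter and in DESeq2, 2 in the likelihood ratio and exact tests, and ran from 0 to 2 without 1 rat, with 1 without rat 6 and 2 without rat 8. Over all features the number under 0.001 also rose, from 39 in the main fit to 72 without the filter, 203 without rat 6 and 158 without rat 8. Members lower at an unadjusted p-value under 0.05 ran from 0 to 1 without 1 rat, with 1 without rat 8 (Rgs10) or rat 9 (Rgs12), and those higher from 2 to 3. The number of pathway genes at that level, 3, ran from 2 to 8 without 1 rat, with 7 without rat 6 and 8 without rat 8. All features under 0.05 likewise rose from 2214 in the main fit to 3145 without rat 6 and 3034 without rat 8. The log2 fold change turned without some rats for Rgs7 (-0.055 to 0.13), Rgs14 (-0.074 to 0.11) and Rgs16 (-0.44 to 0.76). Where a test or filter moved a count, the cause was not tested. Scaling moved the median log2 fold change of all features to between -0.01 and 0.03. Rgs16, with 16 to 228 reads per library, is the member whose depth limits it most. No paired analysis was possible because the labels number the rats from 1 to 10, with no number in both groups.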
